A study of Canis lupus familiaris with 6 samples.

Results

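The 10 genes described here encode the transcriptional coactivators YAP (YAP1) and TAZ (WWTR1), the TEAD factors through which they reach DNA (TEAD1, TEAD2, TEAD3 and TEAD4), and widely used target genes of the complex (CCN1, CCN2, ANKRD1 and AMOTL2). They were taken by symbol from 41401 gene symbols measured in MDCK cells, an epithelial line from canine kidney. The group was selected on its measured values: WWTR1, CCN1 and ANKRD1 had been seen to be lower after PRL1 siRNA in these libraries. The knockdown differences of the 10 genes are therefore given as a description, with no test. All 10 averaged 1 FPKM or more over the libraries, the level required of the 12125 genes that entered any test; FPKM is the number of fragments of a gene scaled by its transcript length and by the mapped fragments of the library. ANKRD1 reached that mean through the control siRNA libraries of the mutant clones, so its presence among the genes tested is no evidence about it.

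RNA was sequenced from 6 libraries, each made 18 h after the second of a pair of siRNA transfections. Mutant cells of the genotype PRL2-/-; PRL1+/- were represented by 2 clones, clone 1 (labelled D7) and clone 2 (labelled F22), and wild-type MDCK cells were the third line. Each of the 3 lines gave 1 library with PRL1 siRNA and 1 library with control siRNA, so the knockdown in the clones acted on cells that already lacked PRL2 and carried a single intact PRL1 allele per the labels. Each clone is 1 isolate, and the labels name no separate cultures within a line. Every p-value below thus measures the spread among these libraries. PRL1 and PRL2 are small phosphatases encoded by PTP4A1 and PTP4A2, and are known as binding partners of CNNM magnesium transporters.

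YAP and TAZ do not bind DNA themselves. The Hippo kinases LATS1 and LATS2 phosphorylate them, which holds them in the cytoplasm on 14-3-3 proteins and marks them for ubiquitin-dependent turnover. Unphosphorylated YAP and TAZ enter the nucleus, bind TEAD factors and raise transcription of genes such as CCN1 and CCN2, and in epithelial sheets crowding, cell polarity and junctions keep them inactive. Most of this control acts on the proteins, whereas the values here are transcript levels. In bulk RNA, fewer cells that express a gene and less of its RNA per cell cannot be told apart.

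The siRNA target PTP4A1 stood at 37.8, 37.8 and 33.1 FPKM with PRL1 siRNA in clone 1, clone 2 and wild type, against 61.7, 69.9 and 63.5 FPKM with control siRNA in the same order. PTP4A1 fell by 0.83 ± 0.05 on the log2 scale over the 3 lines (limma, SE, adjusted p = 0.00126). PTP4A2 transcript was present in the clones labelled PRL2-/-, at 80.4 and 56.7 FPKM with control siRNA, against 72.7 FPKM in wild type. The transcript level thus gives no check of that genotype label. With PRL1 siRNA, PTP4A2 had 69.1, 48.3 and 59.0 FPKM in clone 1, clone 2 and wild type. It fell by 0.25 ± 0.04 over the 3 lines (SE, limma adjusted p = 0.00572), in a fit where 21.7% of all genes tested passed as lower. Whether the siRNA acted on PTP4A2 itself was not tested. All 10 kidney epithelial markers averaged at least 1 FPKM, and their summed level was 1740 to 2145 FPKM with PRL1 siRNA and 1637 to 2180 FPKM with control siRNA. Of 8 fibroblast markers only COL5A1, of 6 endothelial markers only FLT1 and of 8 leukocyte markers only CD74 and CD14 averaged 1 FPKM or more, and 1 fibroblast and 2 leukocyte markers were at 0 in every library. The leukocyte sum was 838 to 1341 FPKM with PRL1 siRNA and 634 to 968 FPKM with control siRNA. Nearly all of it was CD74, at 831.5 to 1333 FPKM with PRL1 siRNA and 628.6 to 961.5 FPKM with control siRNA. The leukocyte markers other than CD74 and CD14 reached at most 0.124 FPKM, and PTPRC and CD3E were at 0 in every library. The sum is thus mostly the level of 1 gene and no measure of leukocytes. The part of these markers in the results below was not tested. Depth relative to the wild-type control library was 0.766, 0.867 and 0.861 in the PRL1 siRNA libraries of clone 1, clone 2 and wild type, and 0.853 and 0.915 in the control libraries of clone 1 and clone 2. The absolute depth is unknown, since FPKM hides the number of fragments.

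Of the coactivators, TAZ transcript was much lower with PRL1 siRNA and YAP transcript was not. WWTR1 had 84.7, 73.7 and 86.4 FPKM with PRL1 siRNA in clone 1, clone 2 and wild type, against 204, 188 and 193 FPKM with control siRNA. All 3 PRL1 siRNA libraries lay below all 3 control libraries, and the 3 lines resembled each other under either siRNA. The means were 81.6 ± 6.91 FPKM with PRL1 siRNA and 195 ± 8.26 FPKM with control siRNA (SD, n = 3 lines). In log2(FPKM + 1), the scale of every log2 difference below, WWTR1 differed by -1.26 in clone 1, -1.34 in clone 2 and -1.15 in wild type. In FPKM without the added 1, WWTR1 was 58.5%, 60.8% and 55.1% lower, and percentages below are on that scale. Among the 12125 genes ranked from the most negative difference, WWTR1 was at place 39 in clone 1, 28 in clone 2 and 33 in wild type. It was an abundant transcript in the control libraries, where its FPKM ranked 328, 361 and 322 from the top in the same line order, against 920, 1061 and 847 with PRL1 siRNA.

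YAP1, the paralogue of TAZ, had 35.4, 35.1 and 44.3 FPKM with PRL1 siRNA in clone 1, clone 2 and wild type, against 39.1, 40.7 and 43.2 FPKM with control siRNA. These ranges overlapped. The YAP1 difference was -0.14 and -0.21 in the clones and 0.04 in wild type, all within the central 90% of all genes in the same line, which spanned -0.41 to 0.44 in clone 1, -0.43 to 0.41 in clone 2 and -0.41 to 0.43 in wild type.

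In FPKM, a scale corrected for transcript length, TAZ transcript exceeded YAP transcript in each of the 6 libraries. The ratio of WWTR1 to YAP1 was 2.395, 2.1 and 1.952 with PRL1 siRNA in clone 1, clone 2 and wild type, against 5.22, 4.63 and 4.46 with control siRNA. WWTR1 thus made up 66.1% to 70.5% of the summed level of the pair with PRL1 siRNA and 81.7% to 83.9% with control siRNA. The sum itself was 120, 109 and 131 FPKM with PRL1 siRNA, against 243, 229 and 236 FPKM with control siRNA, and the stacked plot of the coactivators shows that nearly all of the gap lay in WWTR1. A long noncoding RNA that overlaps WWTR1 in the RefSeq annotation was at 0 to 0.375 FPKM over the 6 libraries.

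**Figure D1:**
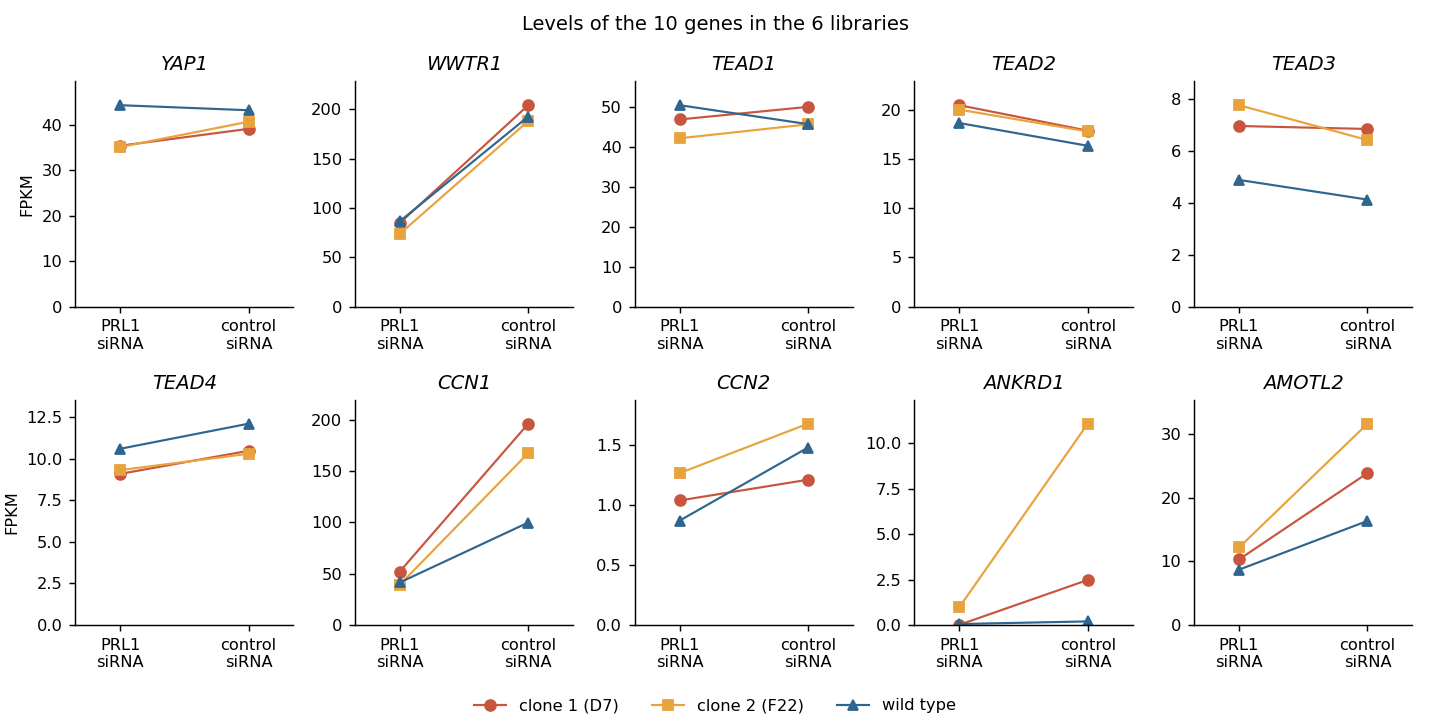
Level in FPKM (vertical axes, from 0, with a separate scale per gene) of the 10 genes in the 6 libraries; points are single libraries and a line joins the PRL1 siRNA library to the control siRNA library of the same cell line. WWTR1, CCN1 and AMOTL2 are lower in each of the 3 lines with PRL1 siRNA, with no overlap between the siRNA groups. YAP1 and TEAD1 overlap between the groups, a little lower with PRL1 siRNA in both clones and a little higher in wild type.

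The TEAD factors did not share the pattern of WWTR1. TEAD1 was the most abundant of them in each library, with 46.9, 42.2 and 50.5 FPKM with PRL1 siRNA in clone 1, clone 2 and wild type, against 50.1, 45.7 and 45.7 FPKM with control siRNA. The TEAD1 groups overlapped, and the log2 difference was negative in both clones (-0.09 and -0.11) and positive in wild type (0.14). TEAD2 had 20.5, 20.1 and 18.7 FPKM with PRL1 siRNA, against 17.9, 17.8 and 16.4 FPKM with control siRNA. Its groups did not overlap, and the difference was small and nearly equal in the 3 lines, 0.18 ± 0.01 on average (SD, n = 3).

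TEAD3, the least abundant of the family, had 6.96, 7.76 and 4.88 FPKM with PRL1 siRNA in clone 1, clone 2 and wild type, against 6.84, 6.42 and 4.12 FPKM with control siRNA. Both wild-type libraries were below all 4 clone libraries whichever siRNA was used. TEAD4 had 9.09, 9.31 and 10.6 FPKM with PRL1 siRNA, against 10.5, 10.3 and 12.1 FPKM with control siRNA. Each line had less TEAD4 with PRL1 siRNA, by 0.16 ± 0.03 in log2 (SD, n = 3), but the groups overlapped because both wild-type libraries were higher than those of the clones.

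Summed over the 4 TEAD genes, the level was 83.5, 79.3 and 84.7 FPKM with PRL1 siRNA in clone 1, clone 2 and wild type, against 85.3, 80.2 and 78.3 FPKM with control siRNA. TEAD1 supplied 53.2% to 59.6% of that sum over the 6 libraries. Since the TEAD sum held level while the coactivator sum did not, the ratio of YAP1 and WWTR1 to all TEADs was 1.37 to 1.54 with PRL1 siRNA and 2.85 to 3.01 with control siRNA. These ratios are of transcripts and say nothing of the amounts of protein.

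**Figure D2:**
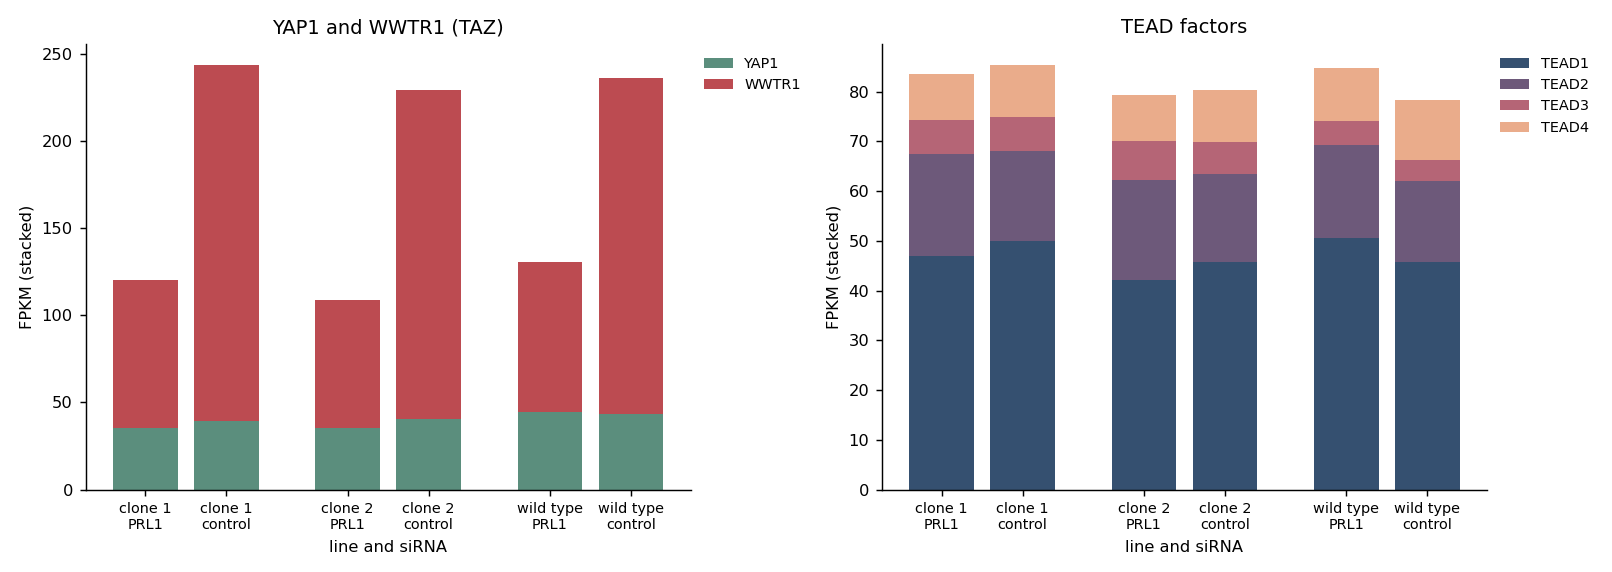
Stacked levels in FPKM (vertical axes, from 0) of YAP1 and WWTR1 on the left and of the 4 TEAD genes on the right, with 1 bar per library, the PRL1 siRNA bar standing left of the control siRNA bar of each line. The coactivator bars reach 109 to 131 FPKM with PRL1 siRNA and 229 to 243 FPKM with control siRNA, mostly through WWTR1, while the TEAD bars stay between 78.3 and 85.3 FPKM in the 6 libraries.

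Among the targets, CCN1 and AMOTL2 were lower with PRL1 siRNA in every line, ANKRD1 was lower mainly in the clones, where it was expressed, and CCN2 was scarce throughout. CCN1 (formerly CYR61) encodes a secreted matrix protein that signals through integrins. It had 52.1, 39.3 and 41.4 FPKM with PRL1 siRNA in clone 1, clone 2 and wild type, against 196, 167 and 99.8 FPKM with control siRNA. The PRL1 siRNA libraries lay close together and all below the control libraries, among which both clones were well above wild type. The log2 difference was -1.89, -2.06 and -1.25 in the same line order, at places 22, 15 and 25 among all genes ranked from the most negative. In FPKM, CCN1 was 73.4%, 76.6% and 58.5% lower. The means were 44.3 ± 6.87 FPKM with PRL1 siRNA and 154 ± 49.4 FPKM with control siRNA (SD, n = 3 lines).

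AMOTL2 encodes an angiomotin-family scaffold of cell junctions that binds YAP and is both a target and an inhibitor of it. It had 10.3, 12.2 and 8.68 FPKM with PRL1 siRNA in clone 1, clone 2 and wild type, against 23.8, 31.6 and 16.3 FPKM with control siRNA, again with no overlap. The order of the lines was the same under both siRNAs, clone 2 highest and wild type lowest. The log2 differences were -1.14, -1.31 and -0.84, and AMOTL2 took places 44, 30 and 66. In FPKM, AMOTL2 was 56.8%, 61.5% and 46.8% lower.

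ANKRD1 encodes an ankyrin repeat protein best known from stressed heart muscle. It had 0.0118, 0.977 and 0.0535 FPKM with PRL1 siRNA in clone 1, clone 2 and wild type, against 2.48, 11.1 and 0.199 FPKM with control siRNA. In each line the PRL1 siRNA library was lower, but the groups overlapped, since clone 2 with PRL1 siRNA exceeded wild type with control siRNA. On the log2(FPKM + 1) scale the difference was -1.78 in clone 1, -2.61 in clone 2 and -0.19 in wild type, where both levels lay far below the pseudocount of 1 FPKM. ANKRD1 took places 24 and 8 in clones 1 and 2 and 2567 in wild type. The mean difference of -1.53 ± 1.23 (SD, n = 3) was -2.95 with a pseudocount of 0.1 FPKM in place of 1, so its size depends on that choice.

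CCN2 (formerly CTGF), the relative of CCN1 that is often measured beside it, had only 1.04, 1.27 and 0.870 FPKM with PRL1 siRNA in clone 1, clone 2 and wild type, against 1.21, 1.68 and 1.48 FPKM with control siRNA. Each line had less CCN2 with PRL1 siRNA and the groups overlapped, with clone 2 under PRL1 siRNA above clone 1 under control siRNA. The differences were -0.12, -0.24 and -0.41, and in contrast to CCN1 the largest was in wild type. In FPKM, CCN1 exceeded CCN2 by 50.2, 31.0 and 47.6 times with PRL1 siRNA, against 162, 99.8 and 67.5 times with control siRNA.

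**Figure D3:**
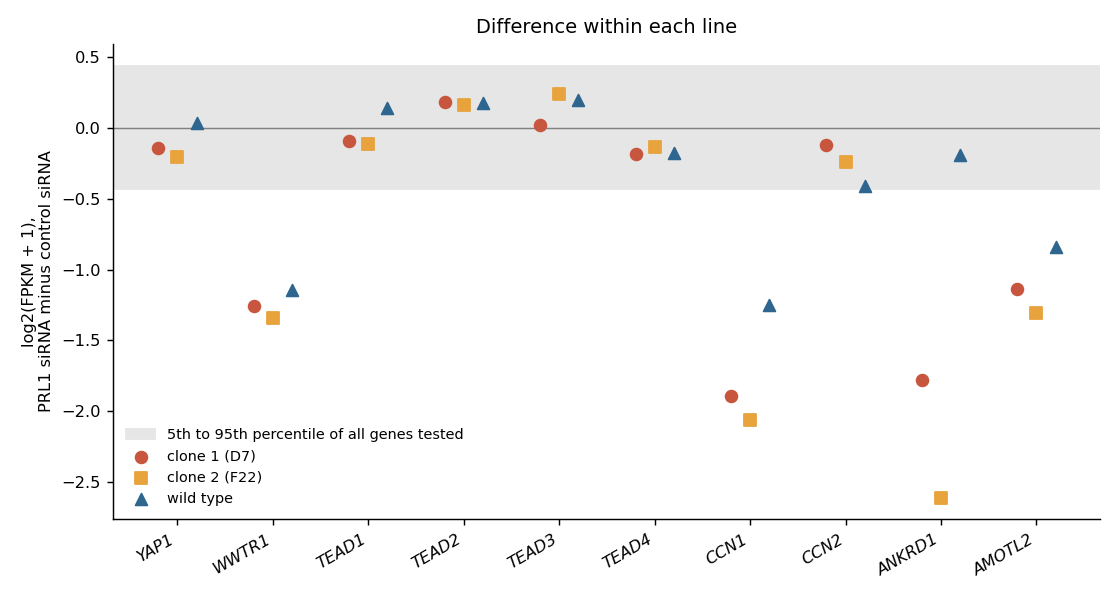
Difference between PRL1 siRNA and control siRNA in log2(FPKM + 1) (vertical axis) for each of the 10 genes (horizontal axis) in clone 1, clone 2 and wild type. The grey band covers the 5th to 95th percentiles of all 12125 genes tested in the 3 lines. It runs from the lowest 5th percentile (-0.43, clone 2) to the highest 95th percentile (0.44, clone 1). WWTR1, CCN1 and AMOTL2 lie below the band in the 3 lines and ANKRD1 in both clones, while YAP1, the TEADs and CCN2 lie within it.

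Counted as a list, 6 of the 10 genes were lower with PRL1 siRNA in each of the 3 lines and 2 were higher in each, as were 35.8% and 31.6% of all genes tested. The median difference over the 10 was -0.16 in clone 1, -0.22 in clone 2 and -0.18 in wild type, against -0.01, -0.02 and -0.004 over all genes tested. In 3 of the 10 (WWTR1, CCN1 and AMOTL2) every PRL1 siRNA library was below every control library, which held for 16.2% of all genes tested, and in 1 (TEAD2) every PRL1 siRNA library was above, which held for 12.6%. WWTR1 and CCN1 were among 12 genes (0.099% of those tested) with a difference of -1 or lower in each line, and AMOTL2 stood just outside through its -0.84 in wild type. As these genes were picked on the same difference, nothing is read from the counts. Other genes among those 12, picked after their values were seen, include HERPUD1, DDIT3, CHAC1 and HSPA5, known genes of the endoplasmic reticulum stress response, and F3.

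Over the 6 libraries the log2 levels of WWTR1 and CCN1 had a Pearson correlation of 0.95, those of CCN1 and AMOTL2 of 0.93 and those of ANKRD1 and AMOTL2 of 0.89, while YAP1 and WWTR1 stood at 0.46. TEAD2 and TEAD4 ran opposite to each other at -0.96. These are descriptions over n = 6 libraries that share 3 lines and 2 siRNAs. The nearest patterns to WWTR1 among 8492 named genes that averaged 5 FPKM or more were those of KPNA3, SLC38A1, PTPN11, KLHL12 and USP38, each with r between 0.997 and 0.999. PTPN11, singled out after its values were seen, encodes the phosphatase SHP2; it had 22.4, 20.9 and 22.6 FPKM with PRL1 siRNA, against 30.6, 29.0 and 29.9 FPKM with control siRNA, a mean difference of -0.42 against -1.25 for WWTR1. The nearest to CCN1 were U2AF2, MRPS7, MIR8819, LARP1 and USP24, with r of at least 0.995; MIR8819 is a microRNA locus, far shorter than an mRNA, so its FPKM is uncertain. The nearest to ANKRD1, high in the control library of clone 2, were TRMT2A, MGAT5, DNAJB12, KTN1 and DDX11, with r between 0.983 and 0.995; MGAT5, a glycosyltransferase of the Golgi likewise singled out afterwards, had 4.26, 5.64 and 4.58 FPKM with PRL1 siRNA in clone 1, clone 2 and wild type, against 6.25, 9.72 and 4.45 FPKM with control siRNA.

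The clones and wild type were next compared without regard to the knockdown. Under control siRNA, the clones carried more CCN1, AMOTL2 and TEAD3 transcript than wild type did. The ratio of the mean of the clones to wild type was 1.82 for CCN1 (1.96 in clone 1 and 1.68 in clone 2), 1.70 for AMOTL2 (1.46 and 1.93) and 1.61 for TEAD3 (1.66 and 1.56). It was 1.02 for WWTR1, 0.923 for YAP1 and 0.858 for TEAD4. With PRL1 siRNA the same ratio was 1.10 for CCN1, 1.29 for AMOTL2, 1.51 for TEAD3, 0.916 for WWTR1, 0.795 for YAP1 and 0.868 for TEAD4. CCN1 thus differed between clones and wild type mostly in the control libraries, and TEAD3 under either siRNA. The control libraries are shared with the knockdown difference by which the genes were picked, so a gene higher in the clones under control siRNA also tends to show a larger knockdown difference there.

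ANKRD1 entered the tests only through the clone control libraries, so no test of it between lines is given: it had 2.48 and 11.1 FPKM in the clones and 0.199 FPKM in wild type under control siRNA. None of the other 9 genes passed in the test of clones against wild type under control siRNA, where the lone wild-type library is assumed to vary like those of the clones. In that limma fit 0 of 12125 genes (0%) passed, 1632 had an unadjusted p under 0.05 and the smallest adjusted p was 0.098. The differences were 0.57 ± 0.11 for TEAD3 (SE, limma adjusted p = 0.256), 0.85 ± 0.21 for CCN1 (adjusted p = 0.298) and 0.71 ± 0.21 for AMOTL2 (adjusted p = 0.323), and these 3 of the 9 had an unadjusted p under 0.05. The largest adjusted p of the 9 was 0.965, for CCN2.

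A fit with line and siRNA as terms, which averages each line over both siRNAs, was added after the data had been seen. In it TEAD3 was higher than wild type in both clones, by 0.53 ± 0.07 in clone 1 (limma adjusted p = 0.00883) and by 0.55 ± 0.07 in clone 2 (adjusted p = 0.00476), and was higher in 4 of 4 clone libraries. TEAD4 was lower, with a log2 difference of -0.20 ± 0.05 in clone 1 (adjusted p = 0.0408) and -0.19 ± 0.05 in clone 2 (adjusted p = 0.0359). AMOTL2 was higher in clone 2, by 0.68 ± 0.11 (adjusted p = 0.00862). In clone 1 AMOTL2 was at 0.37 ± 0.11 (adjusted p = 0.0605) and CCN1 at 0.65 ± 0.19 (adjusted p = 0.0562), neither of which passed. YAP1 did not pass either, at -0.23 ± 0.07 in clone 1 (adjusted p = 0.0596) and -0.21 ± 0.07 in clone 2 (adjusted p = 0.0667). In all, 2 of the 9 genes other than ANKRD1 passed in clone 1, where 24.8% of all genes did (16.7% higher and 8.07% lower), and 3 of 9 in clone 2, where 32.2% did (18.6% higher and 13.6% lower), so these shares are near the background.

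These calls moved with single libraries and settings. The TEAD4 calls were lost with any 1 library left out, at an adjusted p of 0.0821 to 0.281 for clone 1 and 0.0879 to 0.221 for clone 2. The TEAD3 call in clone 1 was lost without its control library (adjusted p = 0.0853) or its PRL1 siRNA library (0.0595), and the AMOTL2 call in clone 2 without the clone 2 control library (0.0514). With no filter on low values none was kept, at an adjusted p of 0.0877 and 0.0663 for TEAD3 and 0.0857 and 0.07 for TEAD4 in clone 1 and clone 2, and 0.108 for AMOTL2 in clone 2. In the other direction, CCN1 and AMOTL2 of clone 1 passed with a pseudocount of 0.1 FPKM (adjusted p = 0.0496 and 0.048), with a minimum average of 5 FPKM (0.0383 and 0.0422), without the wild-type PRL1 siRNA library (0.0118 and 0.0252), without the clone 2 control library (0.0494 and 0.0496) and without the clone 2 PRL1 siRNA library (0.0493 and 0.0489). Without the wild-type PRL1 siRNA library their differences were 1.01 and 0.56, and without the wild-type control library 0.28 and 0.18. YAP1 passed as lower with centred libraries, at a limma adjusted p of 0.0352 in clone 1 and 0.0475 in clone 2. With a minimum average of 5 FPKM it passed in clone 1 (0.0455) but not in clone 2 (0.0534). Its differences were -0.33 and -0.31 without the wild-type control library, and -0.12 and -0.10 without the wild-type PRL1 siRNA library. For ANKRD1 the untested difference of clone 2 from wild type was 2.12, with 1.115 to 3.124 when 1 library was left out and 4.02 with a pseudocount of 0.1 FPKM.

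**Figure D4:**
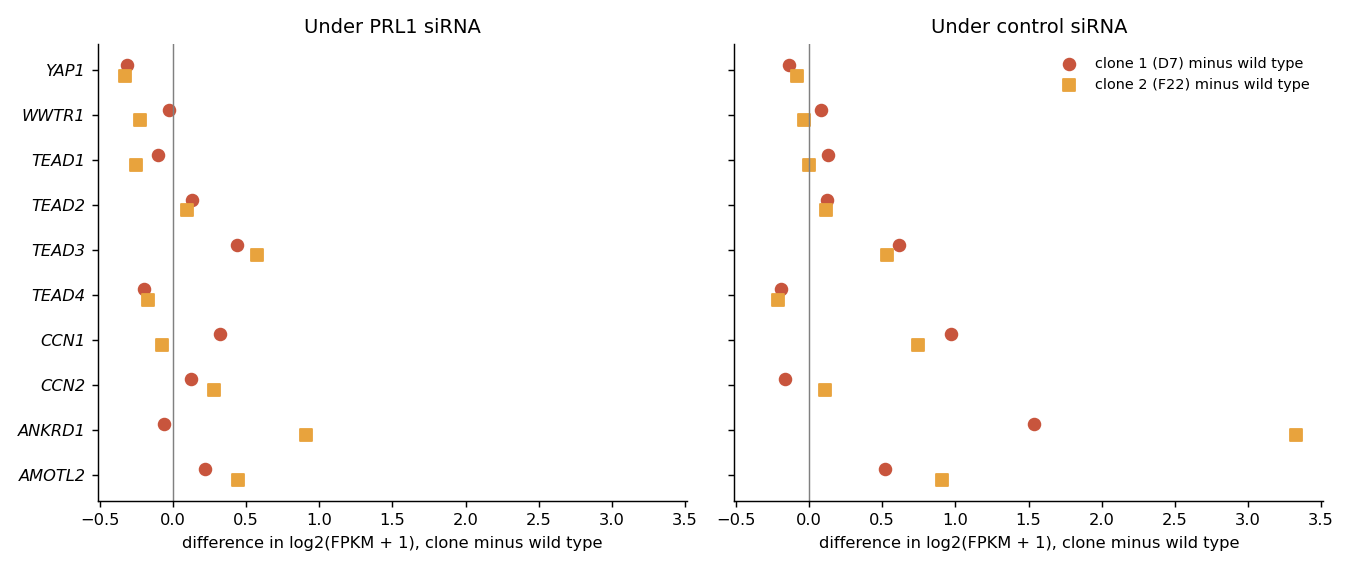
Difference in log2(FPKM + 1) (horizontal axes, shared scale) between each mutant clone and wild type for the 10 genes, under PRL1 siRNA on the left and control siRNA on the right; points are differences of single libraries. TEAD3 lies to the right of 0 for both clones in both panels, CCN1 and AMOTL2 lie farther right under control siRNA, and ANKRD1 of clone 2 lies farthest right.

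Between the clones, none of the 9 genes other than ANKRD1 passed over the 6 libraries, whereas 14.5% of all genes tested did. ANKRD1 was the most unequal, at 0.977 FPKM in clone 2 and 0.0118 FPKM in clone 1 with PRL1 siRNA, and at 11.1 FPKM in clone 2 and 2.48 FPKM in clone 1 with control siRNA. The difference, clone 2 minus clone 1, was 0.31 ± 0.11 for AMOTL2 (SE, limma adjusted p = 0.123), -0.16 ± 0.06 for WWTR1 (adjusted p = 0.122) and -0.31 ± 0.19 for CCN1 (adjusted p = 0.302). Without the wild-type control library CCN1 and AMOTL2 passed (adjusted p = 0.0309 and 0.0376), as they did without the wild-type PRL1 siRNA library (0.0299 and 0.0357). Their sizes rested on single clone libraries: without the clone 2 control library AMOTL2 was at 0.15 and CCN1 at -0.56, and without the clone 2 PRL1 siRNA library AMOTL2 was at 0.47 and CCN1 at -0.07. Each clone is 1 line here, so such a test speaks of these libraries and not of clones in general.

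The knockdown differences of the clones and of wild type can be set side by side, as a description, since the genes were picked on them. The mean difference in the clones minus that in wild type was -0.73 for CCN1, -2.01 for ANKRD1, -0.38 for AMOTL2 and -0.15 for WWTR1. Across all genes this interaction was tested with limma: none of the 12125 passed (0%), 136 had an unadjusted p under 0.05 and the smallest adjusted p was 0.474. Wild type had 1 library per siRNA, assumed to vary like those of the clones.

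The other genes of the pathway were taken from lists drawn up with earlier results of these libraries known, and were tested for the knockdown over the 3 lines, with the line as a term. In that limma fit 39.3% of all genes tested passed, 21.7% lower and 17.6% higher. In the 4-group fit of the knockdown in clones, without a clone term, 0 of 12125 genes passed (0%), with 2575 at an unadjusted p under 0.05 and a smallest adjusted p of 0.106. With the clone as a block the same comparison called 4092 genes, so calls after knockdown rest on comparing libraries within a line.

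Of 24 further reported targets of YAP and TAZ, 18 had a mean of at least 1 FPKM; 13 fell with PRL1 siRNA, 1 rose and 4 did not pass. The median difference of the 18 was -0.32, with -0.27 in clone 1, -0.38 in clone 2 and -0.27 in wild type, against -0.01 over all genes. F3, tissue factor, which starts blood coagulation, had 78.1, 120 and 41.7 FPKM with PRL1 siRNA in clone 1, clone 2 and wild type, against 251, 293 and 87.1 FPKM with control siRNA, and fell by 1.33 ± 0.11 (SE, adjusted p = 0.00172). The growth arrest gene GADD45A fell by 0.66 ± 0.08 (adjusted p = 0.00316) and the growth factor gene TGFB2 fell by 0.51 ± 0.05 (adjusted p = 0.00225). FJX1, which encodes a relative of the fly protein four-jointed, fell by 0.45 ± 0.08 (adjusted p = 0.00889). TGFBR2, a receptor for TGF-beta, rose by 0.32 ± 0.04 (adjusted p = 0.00455). The targets that did not pass were MYOF, CCDC80, ARHGEF17 and FSTL1. The count of 13 was 9 without any 1 clone library, where 971 to 1334 of all 12125 genes fell, against 2632 in the main fit. With no filter on low values 2 of 22 fell, against 728 of all 27931 genes. Without the line term 1 of 18 fell, against 266 of all 12125 genes.

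Of 29 Hippo kinases, adaptors and scaffolds, 28 were tested; 11 fell, 3 rose and 14 did not pass, and the median was -0.02. WWC2, a KIBRA-family scaffold, fell by 0.50 ± 0.06 (adjusted p = 0.00339). MOB1B, a cofactor of the LATS kinases, fell by 0.47 ± 0.05 (adjusted p = 0.002). The phosphatase gene PTPN14 and the scaffold gene RASSF1 fell by 0.45 ± 0.04 (adjusted p = 0.00217) and 0.43 ± 0.04 (adjusted p = 0.00246). The LATS kinases, named after their values were seen, fell by 0.39 ± 0.05 for LATS1 (adjusted p = 0.0047) and 0.41 ± 0.05 for LATS2 (adjusted p = 0.00453). LATS2 had 9.964, 7.801 and 8.867 FPKM with PRL1 siRNA, against 13.97, 11.32 and 11.01 FPKM with control siRNA. FRMD6, a FERM-domain scaffold, rose by 0.30 ± 0.06 (adjusted p = 0.0184) and MAP4K3, a kinase upstream of LATS, rose by 0.18 ± 0.04 (adjusted p = 0.0214). LATS1, LATS2 and PTPN14 are on the target list as well, and their falls count in both. The count of falls was 6 to 10 when 1 library was left out, and 4 with no filter or without the line term. Over all genes the falls were 971 to 2342, 728 and 266 in the same order, against 2632 in the main fit. The count of rises was 0 with any 1 clone library left out, with no filter and without the line term. Over all genes the rises were 741 to 1119, 451 and 150 in that order, against 2130.

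Of 14 cofactors and competitors of the TEADs, 7 were tested and the median was -0.01. JUN, part of the AP-1 factor that shares many sites with TEADs, had 14.2, 15.2 and 28.7 FPKM with PRL1 siRNA in clone 1, clone 2 and wild type, against 24.5, 26.6 and 32.0 FPKM with control siRNA, and fell by 0.55 ± 0.12 (adjusted p = 0.0201). RUNX2 fell by 0.43 ± 0.07 (adjusted p = 0.00873), and FOSL1, another AP-1 member, fell by 0.23 ± 0.06 (adjusted p = 0.0238). VGLL4, which competes with YAP for TEADs, rose by 0.27 ± 0.07 (adjusted p = 0.0299). With either clone 1 library left out, 0 of the 7 passed. Of 8 close relatives of the target genes, CCN3, CCN4, CCN5, CCN6 and AMOT were below the 1 FPKM mean and were not tested, and AMOTL1 (0.12), ANKRD2 (-0.18) and ANKRD23 (0.04) did not pass.

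SRF and MRTF factors, which answer to actin and share targets with YAP and TAZ, were listed with cytoskeletal genes. Of 24, 19 were tested; 6 passed as higher, 1 fell and 12 did not pass, with a median of 0.08. Smooth muscle actin, ACTA2, had 1.76, 3.93 and 0.363 FPKM with PRL1 siRNA in clone 1, clone 2 and wild type, against 0.275, 1.599 and 0.201 FPKM with control siRNA. It is 1 of the 6, but reached a mean of 1 FPKM only through the PRL1 siRNA libraries, so its call is not read as a rise. LIMA1, which crosslinks actin, rose by 0.52 ± 0.05 (adjusted p = 0.00221), FHL1 by 0.30 ± 0.08 (adjusted p = 0.034) and the SRF coactivator MRTFA by 0.22 ± 0.04 (adjusted p = 0.00812). Cytoplasmic actin ACTG1 fell by 0.17 ± 0.04 (adjusted p = 0.0285). The count of genes higher was 1 with either clone 1 library left out, where 741 to 752 of all 12125 genes rose, against 2130 in the main fit.

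Of 18 genes for the 14-3-3 proteins and for the turnover of YAP and TAZ, 17 were tested; 4 fell, 2 rose and 11 did not pass, with a median of -0.04. YWHAQ, which encodes 14-3-3 theta, had 198, 222 and 179 FPKM with PRL1 siRNA in clone 1, clone 2 and wild type, against 273, 299 and 252 FPKM with control siRNA, and fell by 0.46 ± 0.03 (adjusted p = 0.00141). YWHAH, for 14-3-3 eta, fell by 0.25 ± 0.04 (adjusted p = 0.00735) and APC, a scaffold of the beta-catenin destruction complex, by 0.28 ± 0.05 (adjusted p = 0.0133). BTRC, the beta-TrCP subunit that recognises phosphorylated YAP and TAZ for ubiquitination, rose by 0.24 ± 0.05 (adjusted p = 0.017), and YWHAG rose by 0.15 ± 0.04 (adjusted p = 0.0232). With either clone 1 library left out the counts were 1 fall and 0 rises. Over all 12125 genes there were then 971 to 980 falls and 741 to 752 rises, against 2632 and 2130 in the main fit. Read against the 39.3% of all genes that passed, the target list had 77.8% called, Hippo genes 50% and TEAD cofactors 57.1%. Cytoskeletal genes had 36.8% and turnover genes 35.3%. The cytoskeletal share counts the call of ACTA2, which is not read, and would be lower without it. No test set one list against the rest.

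**Figure D5:**
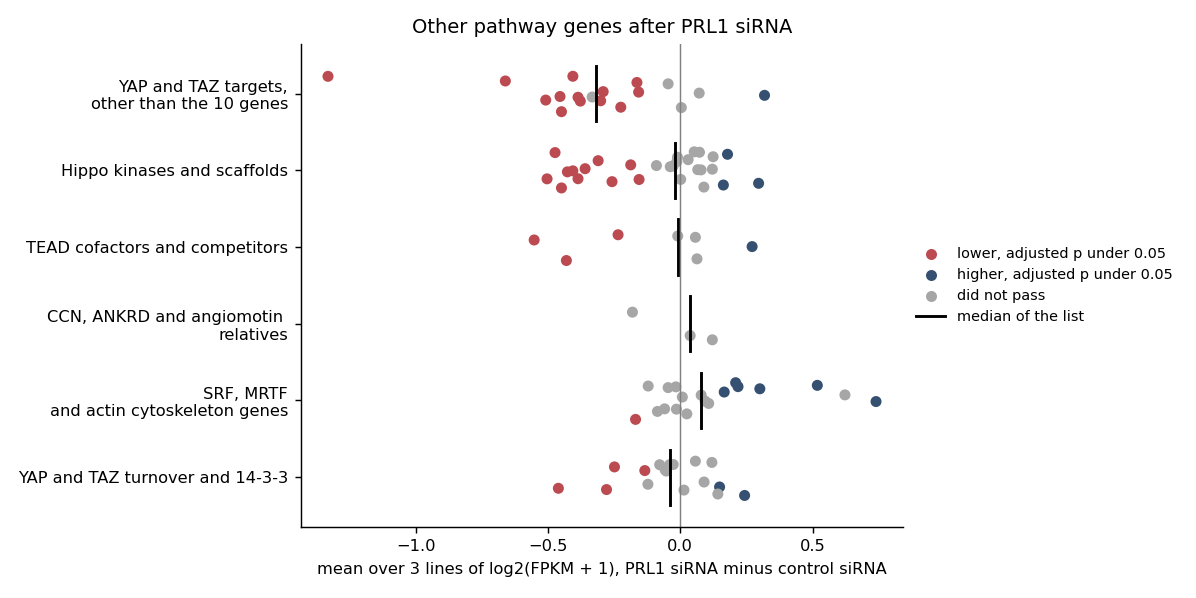
Mean over the 3 lines of the difference in log2(FPKM + 1), PRL1 siRNA minus control siRNA (horizontal axis), for each tested gene of the 6 pathway lists (rows); colour marks genes past the adjusted threshold and black bars are list medians. The targets outside the 10 genes lie mostly left of 0, with a median of -0.32, while the medians of the other lists lie between -0.04 and 0.08.

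The further targets were also compared between clones and wild type. Over both siRNAs, 9 of the 18 were higher in clone 1 and none lower, and 8 were higher in clone 2 and 1 lower, against the background shares of 16.7% higher in clone 1 and 18.6% higher in clone 2 given above. The medians were 0.22 and 0.23. Under control siRNA alone none of the 18 passed, and their median was 0.30. The same counts were taken for other lists. Of the 19 cytoskeletal genes tested, 8 were higher and 2 lower in each clone, with medians of 0.14 and 0.13. ACTA2 and TAGLN are among the 19 but reached a mean of 1 FPKM only through the clone libraries. Wild type had at most 0.363 FPKM of ACTA2 and 0.101 FPKM of TAGLN. Calls of these genes are not read, so 8 is an upper limit. Of the 28 Hippo genes 5 were higher in each clone, near the background, with 0 lower in clone 1 and 1 in clone 2. Of the 17 turnover genes 1 was higher and 2 lower in clone 1, and 4 were higher and 1 lower in clone 2. With no filter on low values, 0 genes in all passed in clone 1 and 1299 in clone 2, against 3001 and 3901.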

How the data were processed

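The deposited values are FPKM, which the authors computed for every gene symbol in each library. HISAT2 2.1.0, Cufflinks 2.2.1 and Cuffdiff are named in the submitters' processing notes, and libraries came from a stranded mRNA kit per the labels' protocols. For genome build, annotation and strand setting the entry is "not given in the sources used here": overlapping and antisense genes may share fragments, and coordinates are left out. RefSeq names of assembly UU_Cfam_GSD_1.0 matched 38797 of 41401 symbols, all 10 genes among them. No pair of libraries was identical. Relative depth was read from values under 0.1 FPKM, where 28.3% to 31.4% of ratios between libraries came within 0.01 (log2) of a ratio of small integers, against 2.95% to 3.18% on shifted grids; most values were not such multiples, so counts were not rebuilt.

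The limma package (3.58.1, with R 4.3.3) was run on log2(FPKM + 1), which understates the change of low genes, with moderated variances and an intensity trend, for genes that averaged 1 FPKM or more. Benjamini-Hochberg adjustment ran over all 12125 genes at a threshold of 0.05, and the procedure was tested on simulated data. The knockdown over 3 lines, and differences between single lines, had line and siRNA as terms (2 residual degrees of freedom). The comparison of clones with wild type under control siRNA, the interaction and the knockdown in clones used 4 groups. Same-numbered mutant libraries share a clone, so the numbers pair the samples; their deviations from the group means had r = 0.595 across 12125 genes. The 10 genes, the gene lists and the tests were chosen with earlier results of these data known. Of each list, up to 4 called genes with the largest mean difference are named, with up to 2 called in the rarer direction; other genes named are said to have been picked after their values were seen. Alternatives were another pseudocount (0.1 FPKM), no filter or a minimum average of 5 FPKM, no trend, centred libraries, another line term and each library left out; the counts of called list genes under these settings, like the fits of each clone against wild type over both siRNAs, were added after seeing the data. One result is not reported here.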

Additional observations from a re-analysis of the deposited data

Results flagged for a closer look

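For YAP1 and TEAD1, both clones differed one way with PRL1 siRNA and wild type the other way. YAP1 differed by -0.14 in clone 1 and -0.21 in clone 2, and by 0.04 in wild type, so that the mean of the clones minus wild type was -0.2099. TEAD1 differed by -0.09 and -0.11 in the clones, and by 0.14 in wild type, so that the mean of the clones minus wild type was -0.242. Both are descriptions: no test of these differences is given, since the genes were chosen with the knockdown values known and wild type had 1 library per siRNA.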

How the results depend on the processing

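Over the 3 lines PRL1 siRNA called 4762 genes, against 1179 with no filter on low values, 416 with no replicate block (no line term) and 1721 to 4095 with 1 library left out. In clones alone it called 0 without a block and with any library left out, and 4092 with the clone as replicate block. Clones against wild type under control siRNA called 0 genes, but 165 with no filter and 4 with no trend; the interaction called 0, but 157 and 4. Clone 2 against clone 1 called 1760, 4 with no filter and 299 to 2164 with 1 library left out; centring each library on its median turned 816 higher and 944 lower into 961 and 723. Clone 1 against wild type called 3001, 0 with no filter and 241 to 2179 with 1 library left out, and clone 2 against wild type 3901, 1299 and 1553 to 3086. The cause was not tested.

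Some differences changed sign. Centring gave -0.013 for WWTR1 in clones against wild type under control siRNA, 0.00443 for TEAD2 in the interaction, 0.0114 for TEAD2 between clones, and -0.0197 for WWTR1 and -0.0348 for TEAD1 in clone 1 against wild type. With 1 library left out, clones against wild type under control siRNA ranged over -0.0342 to 0.0832 for WWTR1, -0.00143 to 0.128 for TEAD1 and -0.165 to 0.111 for CCN2. The interaction ranged over -0.0218 to 0.00865 for TEAD2 and -0.138 to 0.000516 for TEAD3. Clone 2 minus clone 1 ranged over -0.0551 to 0.0992 for YAP1, -0.0704 to 0.128 for TEAD3 and -0.0205 to 0.0294 for TEAD4. Clone 1 minus wild type ranged over -0.0492 to 0.103 for WWTR1, -0.109 to 0.133 for TEAD1, -0.134 to 0.0934 for CCN2 and -0.2655 to 1.74 for ANKRD1, and clone 2 minus wild type over -0.0327 to 0.697 for CCN1. Leaving out the wild-type control library leaves no comparison with it, and leaving out either wild-type library leaves no interaction. In all, 643 values kept their direction and call or moved little (by less than 1 SD where there is one), and 67 moved by more. A further 23 turned, 25 gained a call and 26 lost one. These values are for single genes and lists, with the counts of all genes called in each clone against wild type. FPKM hides fragment numbers, so what depth limits could not be computed; at a pseudocount of 0.1 FPKM the mean knockdown difference was -2.95 for ANKRD1 and -0.43 for CCN2, against -1.53 and -0.26.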

Other observations

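The nearest protein-coding neighbour on each side of the 10 genes, in the gene order of RefSeq assembly UU_Cfam_GSD_1.0, was looked up by a rule set after the values of the 10 genes were seen. Of 20 neighbours, 13 averaged 1 FPKM or more; with PRL1 siRNA over the 3 lines 3 fell, 4 rose and 6 did not pass, against 21.7% lower and 17.6% higher among all genes tested. DDAH1, an enzyme that breaks down inhibitors of nitric oxide synthase and the neighbour of CCN1, had 11.5, 8.88 and 9.25 FPKM with PRL1 siRNA in clone 1, clone 2 and wild type, against 17.8, 16.68 and 14.98 FPKM with control siRNA. DDAH1 fell by 0.69 on the log2 scale (limma adjusted p = 0.00174). COMMD2, beside WWTR1, fell by 0.33 (adjusted p = 0.00259), and the ribosomal protein gene RPL10A, beside TEAD3, by 0.22 (adjusted p = 0.00812). BIRC3, an inhibitor of apoptosis induced by NF-κB and the neighbour of YAP1, had 25.1, 24.2 and 4.96 FPKM with PRL1 siRNA, against 9.79, 14.3 and 3.92 FPKM with control siRNA, and rose by 0.76 (adjusted p = 0.0223). TSPAN9, beside TEAD4, rose by 0.29 (adjusted p = 0.00368), CFAP300, beside YAP1, by 0.23 (adjusted p = 0.0387) and PARVA, beside TEAD1, by 0.21 (adjusted p = 0.0491).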
